A study of Bos taurus with 21 samples.

Results

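The insulin-like growth factor (IGF) axis was followed through the milk somatic cells of 21 Holstein cows. Its 10 genes were the ligands IGF1 and IGF2, the receptors IGF1R and IGF2R, and the binding proteins IGFBP2 to IGFBP7, taken by symbol from the 13570 gene rows of the RNA-seq count tables. All 10 had a row. 9 of them reached a mean of at least 1 count per cow and were tested among 11001 such genes, and IGFBP5 did not. 6 of the 10 (IGF1, IGF1R, IGF2R, IGFBP4, IGFBP6 and IGFBP7) had a mean of at least 10 counts, and IGF2, IGFBP2 and IGFBP3 lay between these limits.

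The cows formed a high yielding group (HY, 9 cows) and a low yielding group (LY, 12 cows), set by a breeding value of milk yield that carries no unit. This value lay between 181.118 and 468.053 for HY cows and between -404.27 and 86.92 for LY cows. Lactation period was 41 to 268 days in HY (median 168) and 52 to 270 days in LY (median 211.5), and parity, the number of calvings, was 2 in 14 cows, 3 in 4 cows and 4 in 3 cows. Each sample was 1 cow of 1 farm, sampled once, so changes over days compare different animals and not the course of a lactation within an animal.

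The counts assigned to genes ranged from 7878557 to 28541904 per cow (median 11826889). No pair of libraries was alike within counting error (lowest chi-square per degree of freedom 37.61). In 5 cows (HY cow 2 and LY cows 7, 9, 11 and 12) the study's mapping rate was above 85%, and these held at least 19213193 counts each, against a median of 11294600.5 in the other 16 cows. Levels are given as CPM, the counts per 1000000 counts of the library after scaling with the TMM factors of edgeR, and 3 counts equal 0.0826 to 0.589 CPM depending on the cow. CPM is not divided by transcript length, so levels are compared between cows and not between genes.

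IGF1 is the ligand through which growth hormone acts on much of the mammary gland, and IGF2 is its close relative. IGF1R is the tyrosine kinase receptor that carries their signal to AKT and MAPK, while IGF2R has no kinase: it takes IGF2 and lysosomal enzymes tagged with mannose 6-phosphate into the endosome. The binding proteins hold IGFs in the extracellular space. IGFBP3 is the main carrier in blood, IGFBP5 is known from the involuting gland, IGFBP6 prefers IGF2, and IGFBP7 binds IGFs only weakly. Milk somatic cells are shed epithelial cells together with macrophages, neutrophils and lymphocytes.

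Markers of these cell types were counted in every library, in widely varying amounts. The 14 genes of a milk secreting epithelium list, the caseins among them, held from 0.124% of the counts in HY cow 7 to 60.6% in HY cow 8 (median 11.6%). This share had a median of 34.1% in the 8 cows sampled up to day 108 (0.204 to 60.6%) and of 5.60% in the 13 cows sampled from day 167 (0.124 to 34.4%). It describes mostly RNA of milk proteins. CSN1S1, CSN1S2, CSN2, CSN3, LALBA, PAEP and GLYCAM1 had means of 16650 to 67450 CPM. The highest mean among the other listed genes was 407.2 CPM, of KRT19, and CDH1 varied only 3.37-fold among the cows. CD68 of macrophages, CXCR2 of neutrophils and CD3E of T cells were counted in all 21 cows. The 9 genes of a fibroblast and stroma list summed to 0.400 to 7.46 CPM (median 1.67), and 4 of them reached a mean of at least 1 count. DCN was counted in all 21 cows, up to 7.46 CPM, while the collagen gene COL1A1 was counted in 7 cows and reached 0.268 CPM. In such a mixture, fewer cells of a type and less RNA per cell cannot be told apart.

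**Figure D1:**
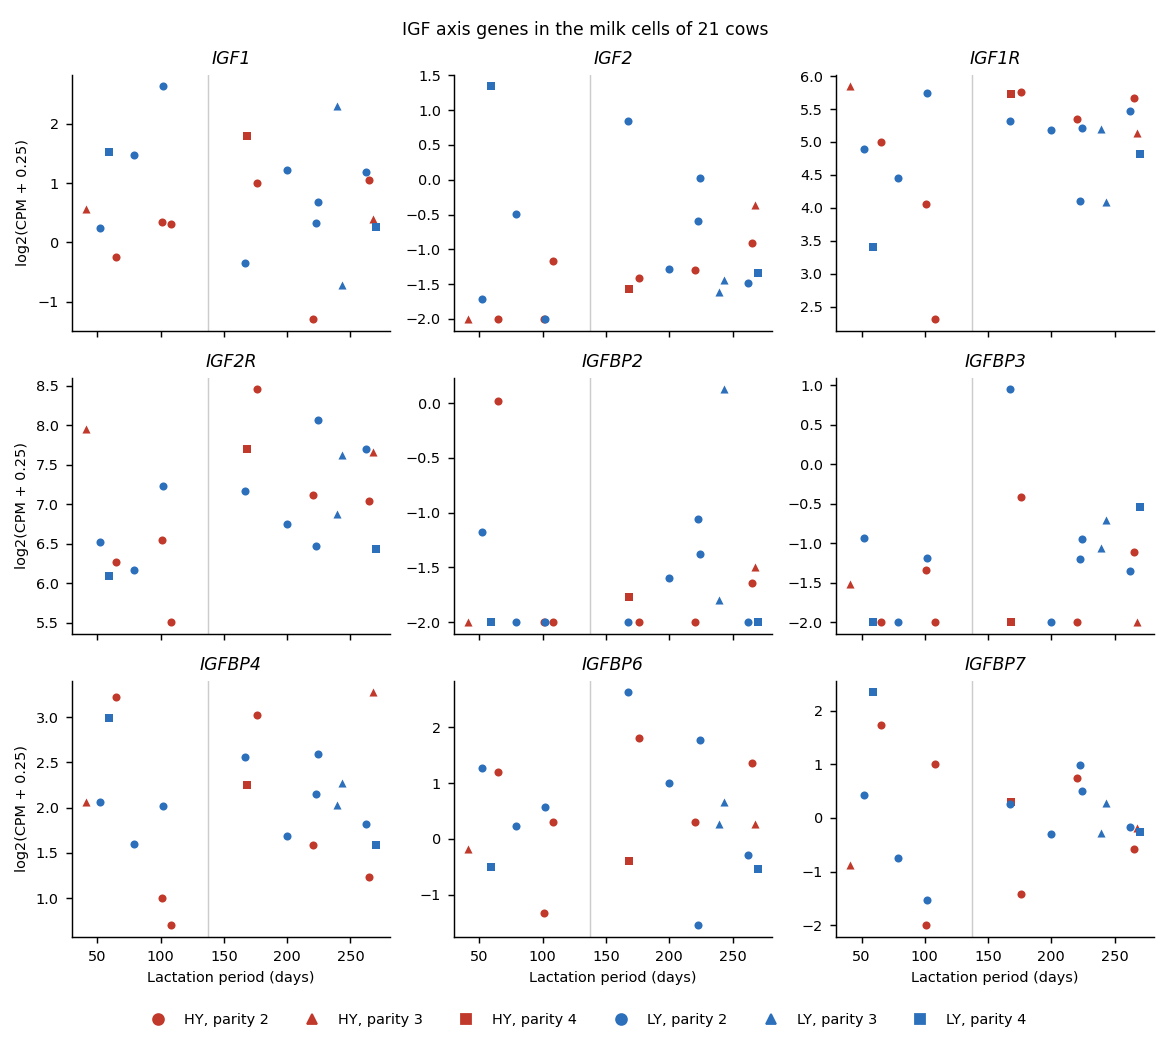
Level of the 9 tested genes, as log2(CPM + 0.25), in each of 21 cows against lactation period in days, with colour for group and shape for parity. The grey line separates the 8 cows up to day 108 from the 13 cows from day 167, and points at -2 are cows with no count, as in IGFBP2, where 10 of 21 cows had a count.

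IGF1 was counted in all 21 cows at a low level that varied among animals. In HY it ranged from 0.158 CPM in cow 5 to 3.21 CPM in cow 2, with a median of 1.06. In LY it ranged from 0.361 to 5.97 CPM with a median of 1.69, and LY cows 5 and 11 were highest at 5.97 and 4.66 CPM. The ranges of the groups overlapped over most of their length. These levels rest on 3 to 122 counts per cow.

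IGF2 was scarce, with 102 counts in the 21 cows together. In the HY cows, taken from the earliest to the latest day, the counts were 0, 0, 0, 1, 2, 1, 4, 4 and 5. In the LY cows in the same order they were 2, 20, 4, 0, 23, 2, 9, 17, 2, 1, 3 and 2. No HY cow thus exceeded 0.528 CPM, while LY cows 2, 4 and 12 stood at 2.29, 1.55 and 0.763 CPM and the other 9 LY cows lay between 0 and 0.461 CPM. The median of HY was 0.125 CPM and that of LY 0.153 CPM.

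IGF1R was well counted, from 24 counts in HY cow 9 to 1237 in HY cow 2. In HY its level ranged from 4.71 to 57.3 CPM with a median of 40.3. In LY it ranged from 10.3 to 53.2 CPM with a median of 32.7. The groups overlapped, and the lowest values belonged to HY cow 9 and LY cow 2, which were sampled on days 108 and 59.

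IGF2R had at least 230 counts in every cow. In HY the level ranged from 45.2 to 350.5 CPM with a median of 138.2, and in LY from 68.1 to 267.7 CPM with a median of 112.2. By stage, the 8 early cows had a median of 84.1 CPM (45.2 to 247.0) and the 13 late cows 142.8 CPM (86.0 to 350.5). The early range was lower at its low end, but HY cow 1, on day 41, lay above 11 of the 13 late cows.

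IGFBP4, a binding protein that restrains IGF action until a protease cleaves it, was found in every cow. HY cows ranged from 1.38 to 9.40 CPM with a median of 3.92, and LY cows from 2.76 to 7.67 CPM with a median of 3.88. The medians were nearly equal. Both the lowest value (cow 9) and the highest value (cow 3) of the 21 cows were in HY.

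IGFBP6 was also counted in all cows, at 1 to 88 counts. It ranged from 0.146 to 3.25 CPM in HY (median 0.982) and from 0.0917 to 5.92 CPM in LY (median 1.09). By parity the median was lower at each step. The range was narrower too, but a range tends to narrow with fewer cows, so it is not compared between parities. The 14 cows of parity 2 ranged from 0.0917 to 5.92 CPM with a median of 1.495. The 4 cows of parity 3 had 0.637, 0.951, 0.956 and 1.32 CPM, and the 3 cows of parity 4 had 0.436, 0.458 and 0.514 CPM. The values of parity 4 rest on only 4 to 12 counts per cow. Every cow of parity 4 was below every cow of parity 3, but 2 cows of parity 2 (HY cow 6 and LY cow 6) were lower than both.

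IGFBP7 had counts in 20 cows, all but HY cow 6. The HY cows ranged from 0 to 3.06 CPM (median 0.634) and the LY cows from 0.0947 to 4.81 CPM (median 0.791). The highest cows were LY cow 2 and HY cow 8, sampled on days 59 and 65. In a newer bovine assembly (RefSeq, ARS-UCD2.0) IGFBP7 overlaps POLR2B, IGF2R overlaps the noncoding gene AIRN, and IGF1R overlaps PGPEP1L. The strand setting of the counting is not given in the sources used here, so reads of overlapping genes may not be told apart.

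The remaining binding proteins were at the limit of what was counted. IGFBP3 had 76 counts in 13 cows, 25 of them in LY cow 4, and a range of 0 to 0.500 CPM in HY and 0 to 1.68 CPM in LY. IGFBP2 had 36 counts in 10 cows, with a median of 0 CPM, and HY cow 8 and LY cow 10 were highest at 0.766 and 0.841 CPM. IGFBP5 had 1 count in LY cow 5 and 1 in LY cow 9. In the 19 cows without a count of IGFBP5, the limit of 3 counts lies between 0.107 and 0.589 CPM, so a low level could not be detected.

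**Figure D2:**
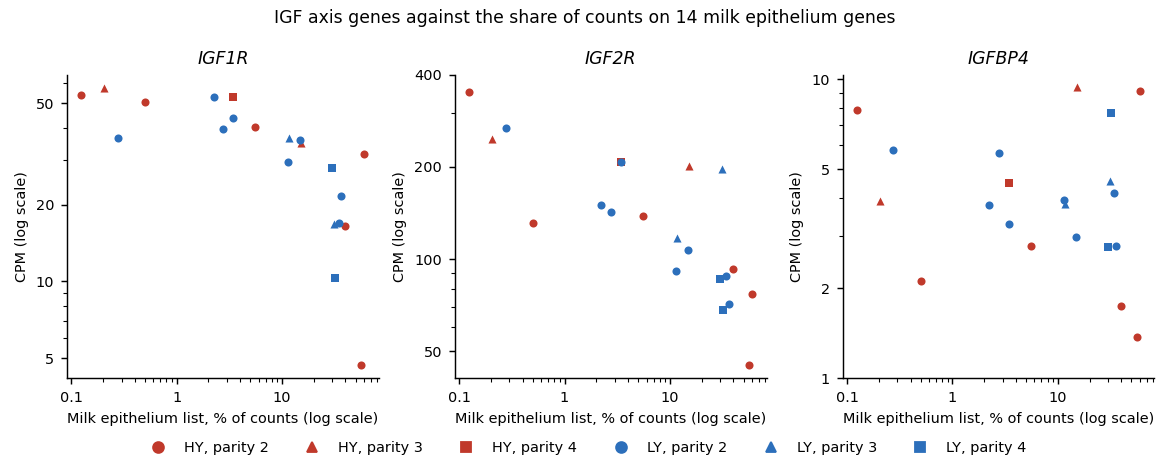
CPM of IGF1R, IGF2R and IGFBP4 against the percent of a cow's counts on 14 milk epithelium genes, both on log scales, with 1 point per cow. IGF1R and IGF2R tended to be lower at a high share, down to 4.71 and 45.2 CPM in HY cow 9 with 56.6%, but LY cow 10 (31.0%) had 196.0 CPM of IGF2R and HY cow 8 (60.6%) had 31.6 CPM of IGF1R.

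Of the 9 tested genes, the receptors had the most negative correlations with the epithelial markers. In the cows with the lowest epithelial shares (HY cows 7, 1 and 4 and LY cow 12, at 0.124, 0.204, 0.503 and 0.275%) IGF1R stood at 53.9, 57.3, 50.6 and 36.6 CPM. HY cows 8 and 9, with shares of 60.6 and 56.6%, had 31.6 and 4.71 CPM. Over the 21 cows, Spearman's rho between IGF1R and the summed level of the epithelial list was -0.89, and 0.177% of the 9628 genes with a mean of at least 10 counts had a lower rho. For IGF2R the same rho was -0.81, with 1.40% of genes lower. These correlations are descriptions without a test, since all genes of a cow share its library, depth and cell mixture.

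Macrophage genes ran the other way. The summed level of the 9 macrophage markers that had a row, which ranged from 1630 to 9011 CPM (median 3886 in early and 3943 in late cows), had a rho of 0.85 with IGF1R (above 98.8% of genes) and of 0.67 with IGF2R (above 91.7%). IGF1R also had a rho of 0.80 with the endothelial list, which was above 99.4% of genes and so ranked higher among genes than that with the macrophage list. This sum consisted mostly of VWF, while CLDN5 was counted in 3 cows and CDH5 did not exceed 1.04 CPM. As a ratio that does not depend on the scaling, IGF1R had a median of 6.98 CPM per 1000 CPM of macrophage markers and ranged from 2.89 in HY cow 9 to 12.3 in HY cow 2. Its span was 4.24-fold, against 12.2-fold for IGF1R itself. HY cow 9 set much of both, and without it they were 2.84-fold and 5.56-fold. The IGF2R ratio had a median of 27.7 and a span of 3.97-fold, against 7.76-fold for IGF2R, or 5.14-fold without HY cow 9. The macrophage list was the one with which each receptor had its highest rho in these same cows. Dividing by a sum that varies with the gene tends to narrow the span, so the narrower spans are no separate result. The spans of the receptors themselves also depend on the scaling.

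IGFBP4 followed the neutrophil list, with a rho of 0.79 that was above that of 99.2% of genes. Its rho with the epithelial list was -0.13. Per 1000 CPM of neutrophil markers, IGFBP4 had a median of 0.764 and a span of 5.30-fold, against 6.84-fold for IGFBP4 itself. Without HY cow 9 these spans were 5.30-fold and 5.37-fold, so the ratio was hardly narrower. The neutrophil list was likewise the one with which IGFBP4 had its highest rho. IGFBP6 had a rho of 0.62 with the macrophage list, above that of 89.4% of genes, and IGFBP7 was the tested member with the highest rho to the epithelial list, 0.39. IGF1, IGF2, IGFBP2 and IGFBP3 had no rho beyond 0.44 in size with any of the 9 lists.

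**Figure D3:**
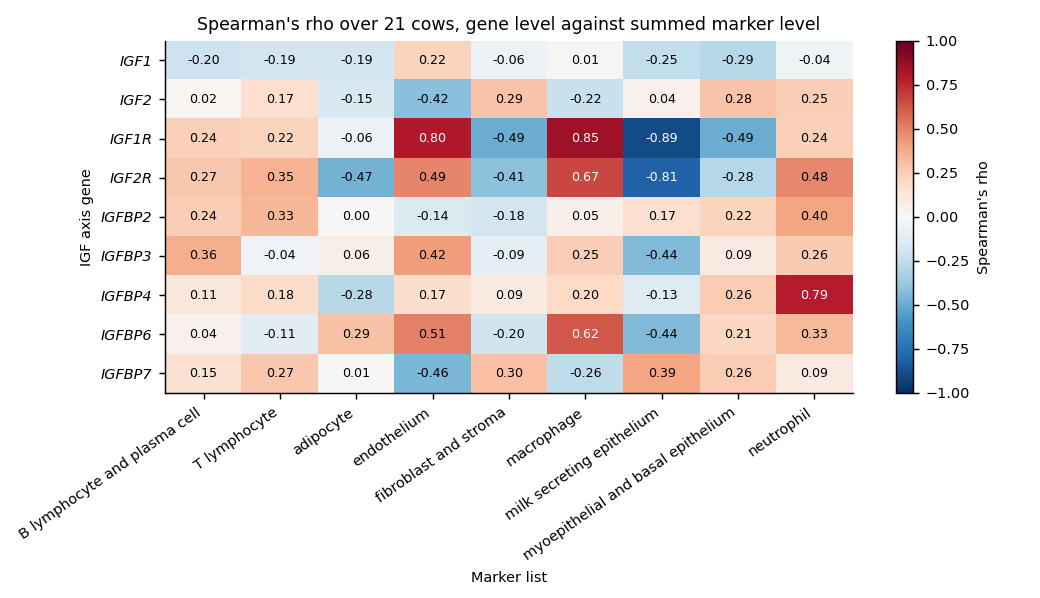
Spearman's rho over 21 cows between the level of each of the 9 tested genes (rows) and the summed CPM of 9 cell type marker lists (columns), from -1 in blue to 1 in red. IGF1R pairs with macrophage (0.85) and against milk epithelium (-0.89), and IGFBP4 pairs with neutrophil (0.79).

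Each of the 6 members with a mean of at least 10 counts was also compared with 9627 other genes. Those nearest to IGF1R over the 21 cows were M6PR (rho 0.94), which encodes the second mannose 6-phosphate receptor, CSF1R (0.93), which is in the macrophage list, and PSAP (0.93), a lysosomal activator protein. IGF2R was nearest to MAFG (0.94), TMEM248 (0.93) and PRR5L (0.93). For IGFBP4 the nearest genes were CDKN2D (0.86), ING4 (0.86) and VASP (0.84). IGFBP6 was most like GAS2L1 (0.86), ASMTL (0.86) and PANK4 (0.82), and IGFBP7 most like AES (0.87), SIGIRR (0.85) and TPM2 (0.80). The likeness of IGF1 was weaker, to PDPN (0.76), TYK2 (0.72) and TEX2 (0.72).

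Among the members themselves, IGF1R and IGF2R varied together with a rho of 0.77. The other 35 pairs lay between -0.42, for IGF1R and IGFBP7, and 0.43, for IGFBP2 and IGFBP4. IGF1 and its receptor had a rho of 0.31, and IGF2 and IGF2R of -0.15.

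Whether the axis followed milk yield was asked in a model with milk yield, parity and lactation period together. No member had a slope with milk yield that passed the adjusted threshold, and neither did any of the 11001 genes (0%, edgeR's quasi-likelihood test with Benjamini-Hochberg adjusted p under 0.05). DESeq2 called 0 genes as well. At the unadjusted p under 0.05 that the study used for trait-associated genes, 258 genes (2.35%) passed and 0 of the 9 members did. The ligand IGF2 came nearest, with a log2 slope of -0.38 per 100 units of milk yield (95% confidence interval -0.77 to 0.0056, p = 0.0532, adjusted p = 1). Without LY cow 2, which held 20 of the 102 counts, this slope was -0.24 and p was 0.159. The unadjusted p of IGF2 was 0.0181 with DESeq2, 0.0306 with mapping class as a term and 0.0482 without covariates, and it was under 0.05 in 9 of the 21 fits that left out 1 cow. No adjusted p in these fits was below 0.984.

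The receptors had small positive slopes with milk yield. IGF2R changed by 0.096 per 100 units on the log2 scale (interval -0.043 to 0.23, p = 0.166) and IGF1R by 0.087 (interval -0.054 to 0.23, p = 0.214). Both slopes depended on single cows. Without HY cow 1 they were 0.046 for IGF2R (p = 0.486) and 0.050 for IGF1R (p = 0.489), and without HY cow 9, where both were lowest, IGF1R was at 0.12 with an unadjusted p of 0.0399 and an adjusted p of at least 0.984. IGFBP4 had a slope of 0.0027, and its interval of -0.16 to 0.16 corresponds to 0.897 to 1.12-fold per 100 units.

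The comparison of HY with LY, without covariates, asked the same question by group. Again 0% of genes passed the adjusted threshold, 318 genes (2.89%) had an unadjusted p under 0.05, 0 of 9 members did, and DESeq2 called 1 gene. The log2 difference of HY minus LY was -1.70 for IGF2 (interval -3.45 to 0.047, p = 0.0559) and -1.63 for IGFBP3 (interval -3.48 to 0.21, p = 0.0807), both with adjusted p = 0.9996 and both resting on a few LY cows. When each cow was left out, the IGF2 difference ranged from -2.18 without HY cow 3 (p = 0.0237) to -1.20 without LY cow 2 (p = 0.144), and p was under 0.05 in 6 of 21 cases, as it was with DESeq2 (0.0411) and with mapping class as a term (0.0367). The lowest adjusted p among these omissions was 0.981. Without HY cow 7, the highest HY cow, the difference of IGFBP3 was -2.36 with p = 0.0195, and without LY cow 4 it was -0.94 with p = 0.267. IGF1 was at -0.65 (p = 0.207), IGF1R at 0.31 and IGF2R at 0.32.

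**Figure D4:**
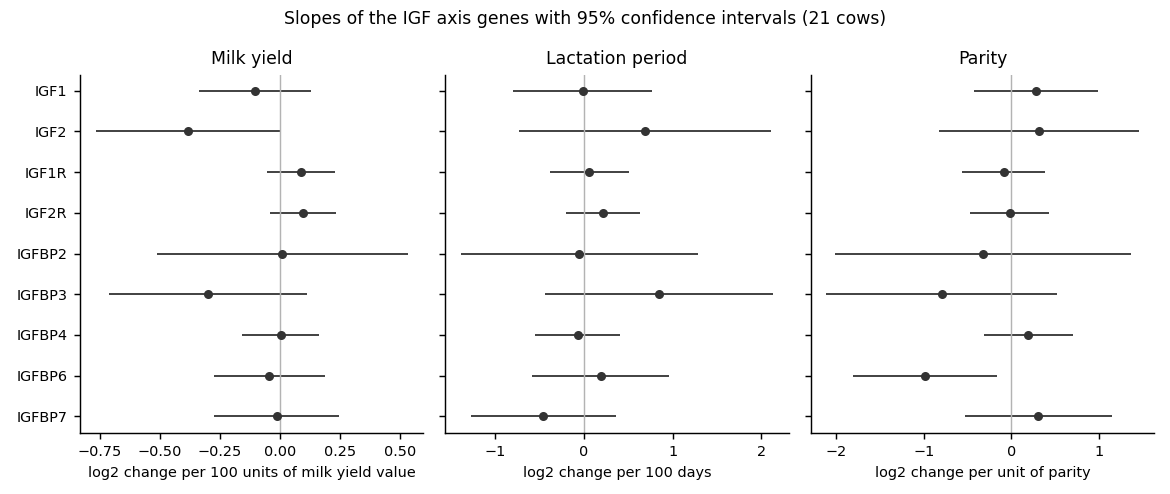
Log2 slopes of the 9 tested genes from edgeR over 21 cows, per 100 units of milk yield value, per 100 days of lactation and per unit of parity. The 95% confidence intervals were derived from each slope and its F statistic, so whether an interval reaches 0 restates the p value. Of the 27 intervals, only that of IGFBP6 with parity (-1.81 to -0.16) does not reach 0, and those of IGF2, IGFBP2 and IGFBP3 are the widest.

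Lactation period was the trait with the most genes at the unadjusted threshold, but no gene of the IGF axis passed. The number of genes with an adjusted p under 0.05 was 0 (0%), with a lowest value of 0.0851, although 2332 genes (21.2%) had an unadjusted p under 0.05. DESeq2 called 833 genes. With edgeR, 550 were called between early and late cows, 191 without HY cow 1 and 369 without HY cow 2. The count of calls thus changed with the method, with the coding of days and with single cows. No member was among the genes called. At the unadjusted threshold, 0 of 9 members passed.

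IGF2R had a log2 slope of 0.22 per 100 days (interval -0.20 to 0.63, p = 0.291, adjusted p = 0.534). When the cows were split into early and late instead, its difference was 0.61 with p = 0.0622 and an adjusted p of 0.217. HY cow 1 was the earliest cow, at day 41, and had a high IGF2R of 247.0 CPM with an epithelial share of 0.204%. Without this cow the slope was 0.49 with p = 0.0420, and the lowest adjusted p over all omissions of a cow was 0.193. Without HY cow 8 it was 0.17 (p = 0.437), and in the 16 cows of lower mapping rate 0.12 (p = 0.617). The epithelial share, with medians of 34.1% early and 5.60% late, moved with the same split, and its part in the difference was not tested. Per 1000 CPM of macrophage markers, IGF2R had a median of 24.2 in early and 31.6 in late cows.

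The other members had wide or flat slopes with lactation period. IGF1R was at 0.061 (interval -0.38 to 0.51) although its medians were 25.5 CPM early and 36.6 CPM late. IGFBP3 was at 0.85 (interval -0.44 to 2.13, p = 0.187), with a difference of 1.96 between late and early cows (p = 0.0491, adjusted p = 0.190), and IGFBP7 at -0.46 (interval -1.28 to 0.36, p = 0.254). IGF1 was at -0.016, an estimate that was 0.0094 with other size factors, and its interval of -0.80 to 0.76 spans 0.575 to 1.70-fold per 100 days. IGF2 was at 0.68 (interval -0.74 to 2.10, p = 0.331). Its slope ranged from 0.40 without HY cow 1 (p = 0.576) to 1.36 without LY cow 2 (p = 0.0373), with an adjusted p of at least 0.344.

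Parity was the trait in which a member passed the unadjusted threshold. IGFBP6 had a log2 slope of -0.98 for each further calving (SE 0.40, interval -1.81 to -0.16, p = 0.0213, adjusted p = 0.9996), a fold of 0.506, and ranked at place 175 of the 11001 genes. It was 1 of 9 members, while 469 of all genes (4.26%) passed the same threshold and 0% passed the adjusted one. DESeq2 called 9 genes after adjustment, with IGFBP6 at an adjusted p of 0.620. The slope stayed between -1.06 and -0.82 when each cow was left out, and p exceeded the threshold without LY cow 1, of parity 4 (p = 0.0550), and in the 16 cows of lower mapping rate (slope -1.04, p = 0.0713). The slope rests on 7 cows above parity 2. The summed macrophage markers, with which IGFBP6 had its highest rho, had a median of 4672 CPM at parity 2 (1630 to 8472) and 3723 CPM at parity 3 and 4 (2309 to 9011). The epithelial share had medians of 8.52% at parity 2 (0.124 to 60.6), 13.4% at parity 3 (0.204 to 31.0) and 29.9% at parity 4 (3.44 to 32.1). IGFBP6 had a rho of -0.44 with the epithelial list. The part of either list in the slope was not tested.

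Of the other members, IGFBP3 had a parity slope of -0.80 (interval -2.11 to 0.52, p = 0.222), and its 6 counts in cows of parity 4 were all in LY cow 1. IGF1 was at 0.28 (p = 0.426), and IGF2 at 0.32, which was -0.97 without LY cow 2. IGF2R was at -0.019, with an interval of -0.47 to 0.43. Its sign changed with other size factors (0.015).

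**Figure D5:**
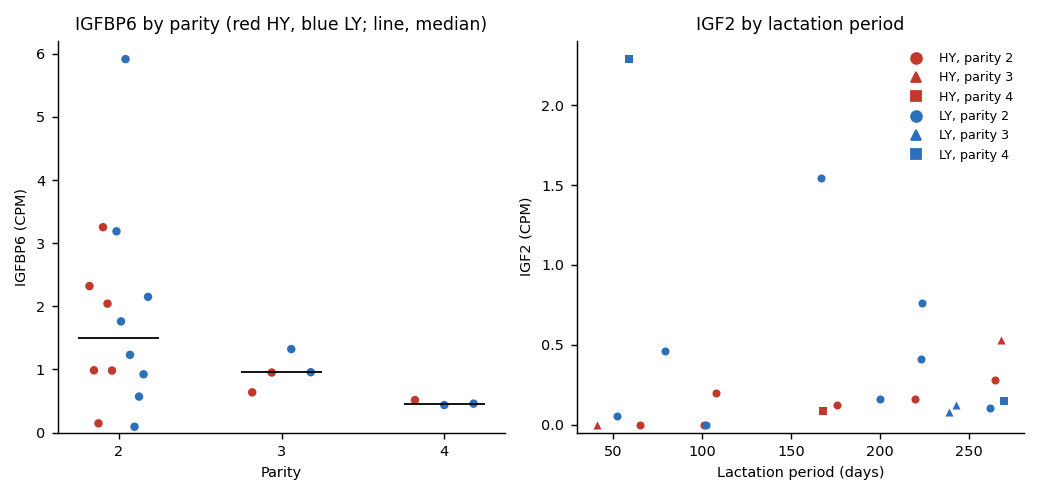
Left, IGFBP6 in CPM by parity with 1 point per cow and the median as a line, at 1.495, 0.953 and 0.458 CPM for parity 2, 3 and 4. Right, IGF2 in CPM against lactation period in days, where the HY cows lie at 0 to 0.528 CPM and LY cow 2, on day 59, is highest at 2.29 CPM.

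A model with an interaction asked whether the course over lactation differed between HY and LY. No gene passed after adjustment (0%), 206 genes (1.87%) had an unadjusted p under 0.05, and DESeq2 called 6. IGF2 was the 1 member of 9 at the unadjusted threshold. Its slope per 100 days was 2.95 higher in HY than in LY on the log2 scale (SE 1.11, interval 0.65 to 5.24, p = 0.0142, adjusted p = 1), at place 43 of all genes. The 4 early HY cows had 1 count of IGF2 together and the 5 late ones 1 to 5 counts each, whereas LY cow 2 had 20 counts on day 59. Without LY cow 2 the difference was 1.83 with p = 0.120, and IGF2 no longer passed. In the other 20 omissions of a cow its unadjusted p was under 0.05, with no adjusted p below 0.8715. For the receptors the difference was 0.016 in IGF1R and -0.27 in IGF2R, with intervals of -0.91 to 0.94 and -1.12 to 0.58. IGFBP2, with 36 counts in all, had a difference of -1.65 (p = 0.202), and an unadjusted p of 0.0187 in the 16 cows of lower mapping rate.

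The genes around the axis were described from a list of 82 symbols, of which 60 had a row and 57 were tested. They comprised carriers and proteases, receptor-proximal adaptors, the PI3K, AKT and mTOR genes, the RAS and MAPK genes, the growth hormone arm and mannose 6-phosphate sorting. None passed after adjustment in any comparison. At the unadjusted threshold, 4 of 57 passed with milk yield (2.35% of all genes), 12 with lactation period (21.2%), 3 with parity (4.26%), 5 between HY and LY (2.89%), and 0 in the interaction (1.87%). The 12 with lactation period were 8 positive and 4 negative, where all genes had 970 positive and 1362 negative. These counts are small, share genes such as GRB14 between comparisons, and are given as a description.

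With lactation period, the protease HTRA1, which can cleave binding proteins, had a log2 slope of -0.52 per 100 days (SE 0.16, p = 0.00374, adjusted p = 0.0994). Its median was 508.1 CPM in early cows (266.8 to 754.9) and 292.5 CPM in late cows (152.3 to 711.8), so the classes overlapped. Without HY cow 1, the highest, the slope of HTRA1 was -0.42 with p = 0.0324. By mapping rate, HTRA1 had a median of 277.4 CPM in the 5 cows of higher rate (266.7 to 359.3) and 437.1 CPM in the other 16 (152.3 to 754.9). RICTOR, a subunit of the mTOR complex that phosphorylates AKT, had a slope of 0.75 (SE 0.24, p = 0.00492, adjusted p = 0.102). RICTOR had a median of 53.7 CPM early (16.4 to 90.7) and 96.3 CPM late (40.5 to 334.4), and without LY cow 7, the highest, p was 0.0683 with a slope of 0.46. Its median was 149.3 CPM in the 5 cows of higher mapping rate (47.4 to 334.4) and 63.2 CPM in the other 16 (16.4 to 119.7). Of those 5 cows 4 were late, and the part of mapping rate in either slope was not tested.

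GRB14, an adaptor that binds the activated insulin receptor, had the lowest p of the list with lactation period (slope -3.58, p = 1.19e-05, adjusted p = 0.0851), with milk yield (0.55, p = 0.00315), with parity (-2.44, p = 0.00145) and between HY and LY (3.94, p = 0.00200). All of this rests on 32 counts in 3 early cows of parity 2, of which 27 were in HY cow 8, 3 in LY cow 9 and 2 in HY cow 6. HY cow 8 also had the highest epithelial share, 60.6%, but HY cow 9, at 56.6%, had no count of GRB14. HY cow 6 and LY cow 9 had shares of 39.6 and 11.4%. The part of the share in these counts was not tested. Without HY cow 1, which had no count of it, the parity p of GRB14 was 0.383.

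With milk yield, the RNA-binding protein gene IGF2BP3 (slope -0.51 per 100 units, p = 0.0261) and STC2, which encodes an inhibitor of the pappalysin proteases (0.27, p = 0.0337), followed GRB14, with adjusted p = 1. IGF2BP3 ranged from 0 to 1.38 CPM in HY and 0 to 5.02 CPM in LY, with medians of 0.106 and 0.943, and its difference between the groups was -2.79 (p = 0.00783, adjusted p = 0.9996). Without LY cow 7, which held 141 of its 320 counts, the milk yield slope was -0.38 with p = 0.0836. STC2 had p = 0.115 and a slope of 0.21 without HY cow 1. The groups overlapped in both genes.

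CISH, a feedback inhibitor of growth hormone and cytokine receptors, was named by both parity (slope -0.94, p = 0.0434) and group (-1.59, p = 0.0219). Of its 18009 counts, 10829 were in LY cow 12, and without that cow p was 0.212 and 0.506. BAD, a death-promoting gene product that AKT inactivates, had a parity slope of -0.64 (p = 0.0229). This slope was -0.56 without HY cow 2 (p = 0.0759) and ranged from -0.75 to -0.43 over all omissions of a cow. BAD stood at 4.20 to 5.01 CPM in the 3 cows of parity 4, 6.50 to 16.2 CPM at parity 3 and 4.23 to 41.4 CPM at parity 2. The highest of these was LY cow 12, with 923 of the 4106 counts of BAD, and the next cow, HY cow 7, had 17.6 CPM. In the interaction, MMP9 (0.81), GRB10 (-0.84) and RHEB (-0.71) had the lowest p, from 0.0615 to 0.0988. These too moved with single cows. MMP9 was at 0.38 without HY cow 3 (p = 0.391), GRB10 at -0.69 without LY cow 9 (p = 0.150) and RHEB at -0.37 without HY cow 9 (p = 0.268).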

How the data were processed

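The series measured milk somatic cell RNA of 21 cows, 1 library each, grouped as HY or LY by the labels. Per the study's methods, reads were trimmed with Trimmomatic, mapped to bosTau7 with Bowtie2 and TopHat2, and counted on genes with HTSeq. Versions and the strand setting are not given in the sources used here. The authors deposited whole-number counts per gene without normalization. Milk was collected by hand after the evening milking. A row without a gene name (0.036 to 0.151% of counts) was left out, and 23 rows bore a date in place of a symbol.

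Genes with a mean of at least 1 count were fitted with edgeR's quasi-likelihood test (TMM, additive model of milk yield per 100 units, parity and lactation period per 100 days), with separate models for HY against LY and for the interaction of group and lactation period. The standard error (SE) was taken as the size of the slope over the root of its F statistic. Intervals are 95% and multiply this SE by the t quantile of the fit. Whether an interval includes no change thus restates the p value. Calls used Benjamini-Hochberg adjustment over all genes. The script was tested on simulated counts drawn from a mean profile common to all cows. That test thus did not cover differences in cell mixture between libraries. Log2 levels use a pseudocount of 0.25. TMM factors ranged from 0.459 to 1.48, and a low factor lets summed CPM of casein-rich cows exceed their share of counts. Alternatives were other size factors, count filters, DESeq2, mapping rate classes, fewer or classed covariates, the study's regression of milk yield on expression, and each cow left out.

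Members and lists were chosen with earlier results of these data known. The text names all 10 members, for each comparison the 3 pathway genes of lowest p, and for members with a mean of at least 10 counts the 3 genes of highest Spearman's rho. Marker genes are named as needed. Gene names and overlaps came from RefSeq ARS-UCD2.0, another assembly, so no coordinates are given. Cows are numbered in the order of their records, and the numbers pair no animals. The single counts in each cow cover counting error only. Analyses used R 4.3.3, edgeR 4.0.16 and DESeq2 1.42.0.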

Additional observations from a re-analysis of the deposited data

Results flagged for a closer look

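In 3 groups of 4 to 10 cows (HY, the cows up to day 108, and the cows of parity 3 and 4), each of the 9 tested genes was searched for a cow that stood far from the rest, by the gap to the nearest cow as a share of the group's range. Of 27 pairs of gene and group, 8 were marked, all for a cow above the others. Chance marks about 1 in 20 groups of independent, normally distributed values. These groups share cows, and IGF2, IGFBP2 and IGFBP3 had counts of 0 in several of them, so the number marked cannot be read against that rate.

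IGF1 reached 5.967 CPM (63 counts) in LY cow 5 among the early cows, where the next cow had 2.63 CPM. IGF2 reached 2.29 CPM (20 counts) in LY cow 2, which stood apart among the early cows (next 0.461 CPM) and among the cows of parity 3 and 4 (next 0.528 CPM). IGFBP7 in the same LY cow 2 was at 4.809 CPM (42 counts) against 0.985 CPM in the next cow of parity 3 and 4. IGFBP2 was at 0.7656 CPM (9 counts) in HY cow 8, apart from both HY (next 0.106 CPM) and the early cows (next 0.193 CPM). In LY cow 10 IGFBP2 was at 0.8412 CPM (7 counts) among the cows of parity 3 and 4, where the next was at 0.106 CPM. IGFBP3 was at 0.5004 CPM (4 counts) in HY cow 7, and the next HY cow had 0.211 CPM.

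Of the marked cows, HY cow 8, LY cow 2 and LY cow 10 had epithelial marker shares of 60.6, 32.1 and 31.0% of counts. LY cow 5 and HY cow 7 had shares of 2.24 and 0.124%. Whether these shares had a part in the values above was not tested.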

How the results depend on the processing

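No member passed the adjusted threshold under any alternative run. Under alternatives other than leaving out a cow, 21 values changed sign. With milk yield, IGFBP4 was -0.00058 with RLE size factors, -0.00022 with DESeq2, -0.0011 with mapping class as a term, -0.0093 without covariates and -43.6 units of milk yield per log2 unit in the study's regression. IGFBP2 was -0.032 with mapping class and -9.15 in that regression, and IGFBP7 was 0.023 in the 16 cows of lower mapping rate. With lactation period, IGF1 was 0.0094 with RLE and 0.010 with DESeq2, IGFBP2 0.14 with DESeq2 and 0.25 in the 16 cows, IGF2 -0.32 without covariates and IGFBP4 0.10 between the 2 classes of days. With parity, IGF2R was 0.015 with RLE, 0.015 with DESeq2, 0.086 in the 16 cows, 0.015 without covariates and 0.11 between 2 classes, IGF1 was -0.32 in the 16 cows and IGFBP2 0.31 between 2 classes. The causes were not tested.

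Leaving out each cow in turn changed the sign of these log2 values, given as lowest to highest. With milk yield they were -0.35 to 0.084 for IGFBP2, -0.045 to 0.031 for IGFBP4 and -0.073 to 0.073 for IGFBP7. With lactation period they were -0.21 to 0.22 for IGF1, -0.0084 to 0.28 for IGF1R, -0.58 to 1.23 for IGFBP2 and -0.20 to 0.18 for IGFBP4. With parity they were -0.24 to 0.077 for IGF1R, -0.97 to 0.68 for IGF2, -0.089 to 0.12 for IGF2R, -1.03 to 0.13 for IGFBP2 and -0.25 to 0.45 for IGFBP7. Between HY and LY they were -1.80 to 0.60 for IGFBP2, -0.024 to 0.28 for IGFBP4, -0.56 to 0.14 for IGFBP6 and -0.64 to 0.27 for IGFBP7. In the interaction they were -0.13 to 0.47 for IGF1R, -0.42 to 0.29 for IGF2R, -3.58 to 1.26 for IGFBP2, -0.19 to 0.62 for IGFBP4 and -0.76 to 0.68 for IGFBP7.

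Counts over all genes moved as follows. After adjustment, lactation period gave 2 genes without a filter, 833 with DESeq2, 2 without covariates and 550 between classes, and 0 to 369 with a cow left out. Parity gave 9 with DESeq2 and 4 without covariates, and 0 to 2 with a cow left out. DESeq2 called 1 gene between HY and LY and 6 in the interaction. At unadjusted p under 0.05, milk yield gave 464 genes without a filter, 165 at a mean of 10 counts, 164 in the 16 cows and 184 to 408 with a cow left out. Lactation period gave 1518 to 2759 with a cow left out. Parity gave 149 in the 16 cows and 260 to 831 with a cow left out. Between HY and LY there were 580 without a filter and 189 at a mean of 10 counts, and in the interaction 110 at a mean of 10 counts and 151 to 591 with a cow left out.

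Depth limits IGF2, IGFBP2, IGFBP3 and IGFBP5 most, with 102, 36, 76 and 2 counts in all. IGF2, IGFBP2 and IGFBP3 had no value at a mean of 10 counts. No paired analysis was possible because the labels give no replicate numbers that pair the cows.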
